A study of Homo sapiens with 6 samples.

Results

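The G protein gamma subunits are a family of small, lipid-anchored proteins, and 10 of their genes were followed here: GNG2, GNG3, GNG4, GNG5, GNG7, GNG10, GNG11, GNG12, GNGT1 and GNGT2. They were picked out by gene symbol from a table of 17100 transcripts, and all 10 were found in it. The family was chosen on the read counts of the same comparison that is described below, guadecitabine against vehicle, so the differences of these 10 genes are given as values with their errors and without p-values. RNA sequencing was performed on MDA-MB-231 cells, an established human breast adenocarcinoma line, in 2 groups of 3 libraries. One group received guadecitabine (SGI-110) at 1 µM for 96 h and was harvested after a further 24 h without treatment, and the other received vehicle for 96 h. Guadecitabine is a prodrug of decitabine, a nucleoside analog that is built into DNA and traps DNA methyltransferases, so that methylation is lost as cells divide. The libraries of each group came from 3 independent experiments according to the methods of the study. For these cultures the make-up of the vehicle is not given in the sources used here, and a single cell line limits both groups as a model.

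A heterotrimeric G protein consists of an alpha subunit that binds guanine nucleotides and a beta and a gamma subunit that stay together as a dimer. The gamma subunit carries a farnesyl or geranylgeranyl group at its C-terminus that holds the dimer at the membrane. When a receptor activates the alpha subunit, the beta-gamma dimer is set free and acts on its own effectors, among them phospholipase C beta, adenylyl cyclases, phosphoinositide 3-kinases, potassium channels and guanine nucleotide exchange factors for Rac.

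In guadecitabine-treated cells, GNG7 transcripts were reduced to a small remainder, with 255, 220 and 229 reads in the vehicle libraries against 11, 10 and 13 after treatment. Transcripts of GNGT2, the gamma subunit of cone photoreceptors, went from 0, 1 and 6 reads to 75, 29 and 59, and those of GNG4, a mainly neuronal subunit, from 7, 6 and 56 reads to 108, 46 and 117. GNG11, one of the most abundant members, was 1.71-fold higher. GNG5, GNG10 and GNG12, the other abundant members, had fitted log2 fold changes between -0.08 and 0.16.

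Library totals were between 17602570 and 22277442 reads for vehicle and between 8792127 and 21410849 for guadecitabine, and guadecitabine replicate 2 was the shallowest library. Vehicle replicate 3 stood apart from the other libraries. Only 20 of the 17100 transcripts had no read in it, against 1593 to 2517 in the other 5 libraries. Over 2782 transcripts with at most 1 read in each of the other vehicle libraries, vehicle replicate 3 held a median of 7.78 raw reads per kb of counted exon, with an upper quartile of 11.3, while the median was 0 in every other library. Low-level genes were therefore also compared without vehicle replicate 3. The cell line markers VIM, CD44, EGFR and KRT18 were abundant in all 6 libraries, with at least 910 reads each. ESR1 and PGR, which encode the hormone receptors that this line is known to lack, had 0 or 1 read in all libraries other than vehicle replicate 3, where they had 67 and 43 reads. ERBB2 had 552 to 1974 reads, and CDH1 had 6 to 87. Among markers of other cell types, PTPRC and ALB had 0 to 3 reads outside vehicle replicate 3, where they had 36 and 11, and PECAM1 had 39 to 104. Because RNA was taken from whole cultures, fewer cells making a transcript and less transcript per cell cannot be told apart.

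The CG dinucleotide (CpG) is the target of DNA methyltransferases. Its content just upstream of the start of the counted transcript differed widely between GNG7, GNG4 and GNG11. The 200 bases that end directly before the start site of the counted transcript are given for GNG7, the member with the largest loss, and for GNG4 and GNG11, whose counts were higher in every treated library. They were read from the GRCh37 genome, which is the assembly of hg19, 5′ to 3′ on the strand of the gene, and CG pairs are in capitals. The GNG7 stretch lies at chr19:2702747-2702946 on the minus strand and holds 27 CG pairs. The GNG4 stretch lies at chr1:235814055-235814254 on the minus strand and holds 7, and the GNG11 stretch lies at chr7:93550816-93551015 on the plus strand and holds 5.
GNG7: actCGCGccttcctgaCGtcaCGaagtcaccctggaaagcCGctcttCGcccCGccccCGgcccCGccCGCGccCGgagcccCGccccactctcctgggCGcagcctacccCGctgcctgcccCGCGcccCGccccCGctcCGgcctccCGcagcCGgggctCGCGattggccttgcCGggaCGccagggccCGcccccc
GNG4: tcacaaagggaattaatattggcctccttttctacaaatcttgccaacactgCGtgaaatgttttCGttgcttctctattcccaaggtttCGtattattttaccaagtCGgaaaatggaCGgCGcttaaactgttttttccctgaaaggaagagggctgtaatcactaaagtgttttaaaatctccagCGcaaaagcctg
GNG11: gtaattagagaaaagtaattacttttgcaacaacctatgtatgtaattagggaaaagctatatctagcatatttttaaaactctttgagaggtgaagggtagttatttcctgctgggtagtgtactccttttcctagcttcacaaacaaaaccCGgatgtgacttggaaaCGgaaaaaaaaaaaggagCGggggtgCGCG

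CG pairs were then counted in the window from 250 bases before to 50 bases after the start site of each of the 17100 transcripts. A CG pair reads the same on both strands. The median over these windows was 22, with quartiles of 10 and 32. GNG7 had 42 CG pairs, and 8.74% of windows had at least as many. GNG10 followed with 33, GNG12 with 30 and GNG5 with 23, so that 3 of the 4 abundant members were at or above the median. GNG11, the remaining abundant member, had 6, and 18.3% of windows had at most as many. GNG4 had 13, GNG3 had 7, GNG2 had 3 and GNGT1 had 2. GNG7 had the most CG pairs of the 9 members given here. The count depends on the start site used: in the RefSeq promoter table of GRCh38, which held these 9 members and uses another start for GNG4, the GNG4 window of the same length held 30 CG pairs. For the other 8 the number differed by at most 3. Methylation itself was not measured in these libraries.

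**Figure D1:**
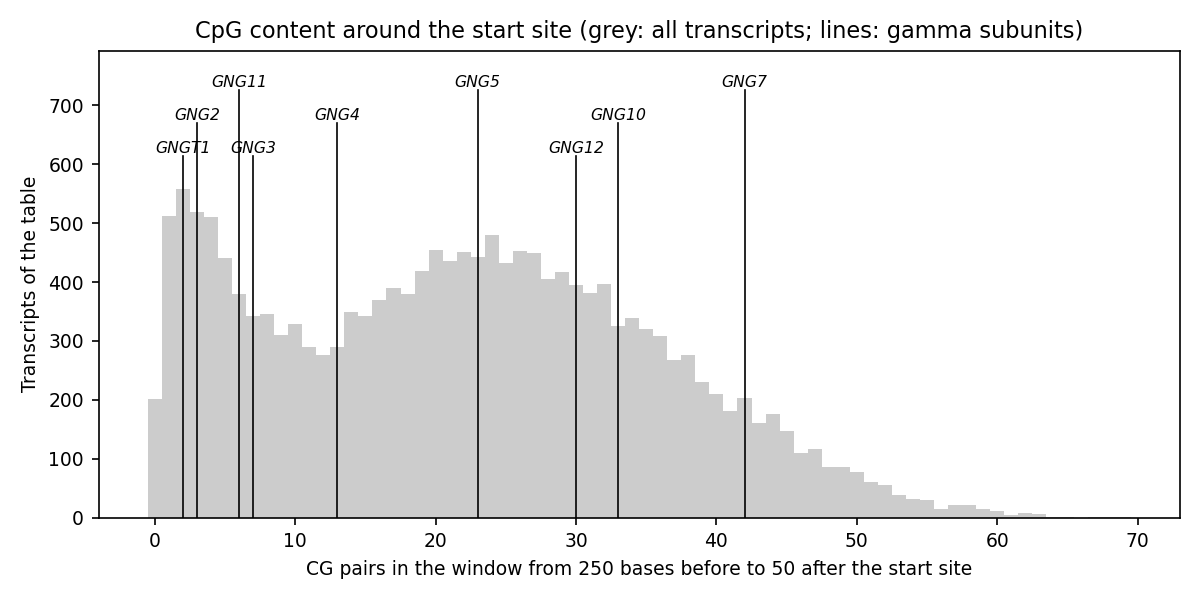
Number of CG pairs in the 300-base window around the deposited start site (x axis) against the number of transcripts (y axis). Grey bars show all 17100 transcripts and black lines mark 9 gamma subunit genes; GNG7 lies far to the right with 42 CG pairs, while GNGT1, GNG2, GNG11 and GNG3 lie at 7 or below.

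To compare levels between genes, reads were scaled by TMM factors to a common library size and divided by each transcript's counted exon length, giving normalized reads per kb. In vehicle-treated cells GNG5, a widely expressed subunit, was the most abundant member at 3584 ± 561 reads per kb (SD, n = 3). GNG11 followed with 1874 ± 362, GNG10 with 1293 ± 277 and GNG12 with 990.6 ± 47.5. The range of GNG5 did not overlap that of GNG11, whereas GNG11 overlapped GNG10 and GNG10 overlapped GNG12. GNG7 was next with 51.3 ± 8.36 reads per kb, below all libraries of GNG12 and above all libraries of GNG2. GNG2 had 17.8 ± 5.94, and each further member in the order, GNGT1, GNG3, GNG4 and GNGT2, overlapped its neighbor.

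**Figure D2:**
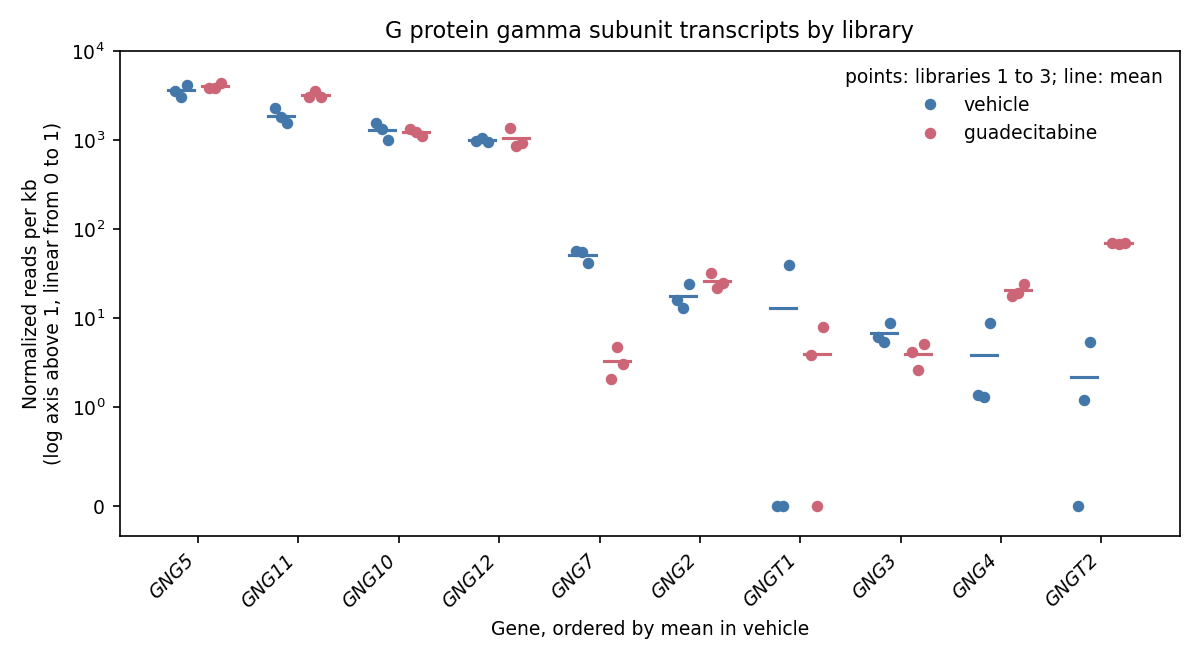
Normalized reads per kb of counted exon (y axis, logarithmic above 1 and linear from 0 to 1) for the 10 gamma subunit genes (x axis), with points for the 3 vehicle and 3 guadecitabine libraries and lines for the group means. GNG7 drops from 51.3 to 3.33 on average, GNGT2 rises from 2.20 to 69.2 and GNG4 from 3.86 to 20.5, while GNG5, GNG11, GNG10 and GNG12 lie far above the other members in both groups.

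After guadecitabine the same 4 genes led, with GNG5 at 4017 ± 316 reads per kb, GNG11 at 3205 ± 307, GNG10 at 1219 ± 116 and GNG12 at 1047 ± 274. GNG5 and GNG11 still did not overlap, and GNG11 now lay above GNG10 in every library. GNGT2 had moved from the last place to the one behind GNG12, with 69.2 ± 1.01 reads per kb, followed by GNG2 with 26.4 ± 5.20 and GNG4 with 20.5 ± 3.34, which overlapped each other. GNG7 had moved from that place to the last, with 3.33 ± 1.37 reads per kb, and overlapped GNG3 and GNGT1.

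The summed level of the 10 members was 7837 ± 568 reads per kb in vehicle and 9615 ± 49.6 after guadecitabine, and the ranges did not overlap. GNG5, GNG11, GNG10 and GNG12 together made up 98.8% of this sum in vehicle and 98.7% after guadecitabine. Within it, the share of GNG11 was 26.8%, 24.9% and 19.8% in the vehicle libraries and 31.2%, 37.0% and 31.8% in the treated ones. All treated libraries were thus above all vehicle libraries for GNG11. The share of GNG5 was 45.7% ± 6.61 in vehicle and 41.8% ± 3.48 after guadecitabine, and these ranges overlapped. GNG7 made up 0.655% ± 0.109 of the sum in vehicle and 0.0347% ± 0.0143 after treatment, and GNGT2 0.0286% ± 0.0360 and 0.720% ± 0.00817. The changes of GNG7 and GNGT2 were large in fold but concerned less than 1 percent of the gamma subunit transcripts.

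**Figure D3:**
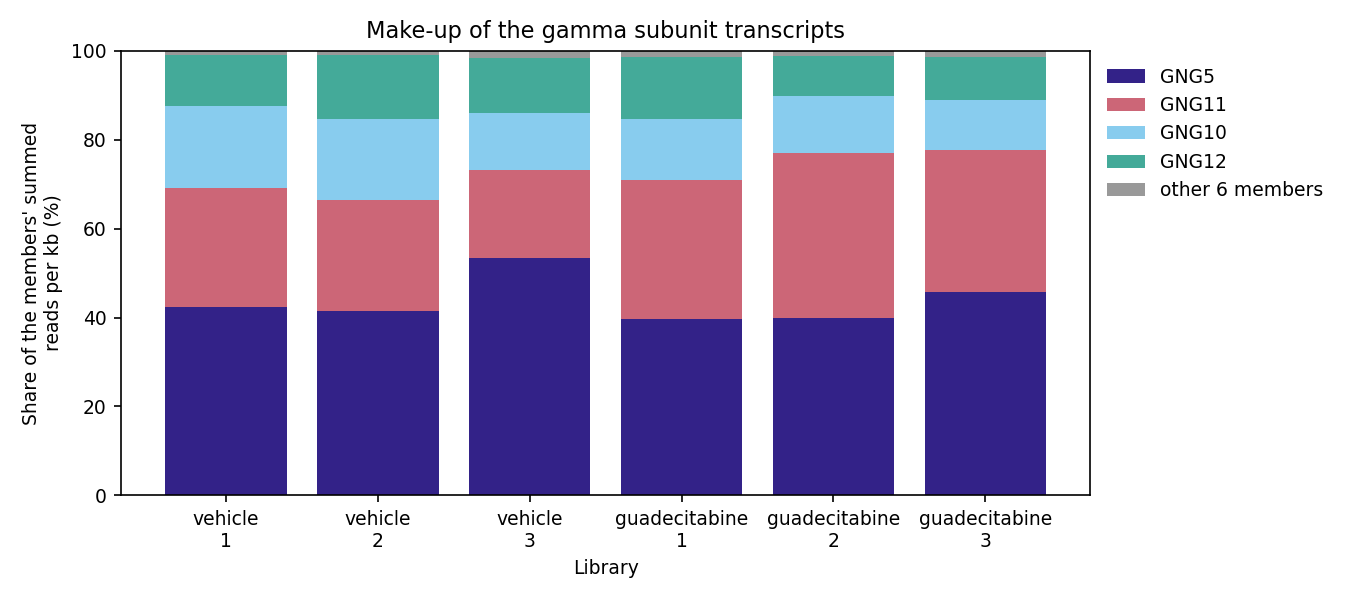
Share of each abundant member in the summed normalized reads per kb of the 10 genes (y axis, percent) in each of the 6 libraries (x axis). GNG11 takes 19.8% to 26.8% in the vehicle libraries and 31.2% to 37.0% in the guadecitabine libraries, and the other 6 members together form a thin band at the top.

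The share of GNG10 carries a limit that comes from its counting. Its reads were counted over only 145 bp, a length that 41 of the 17100 transcripts had or fell below, against a median of 2815 bp. Of the 50-base stretches in its annotated exons 26.2% occur once in the genome, against at least 94.9% for each of the other members. In addition, 90.5% of its annotated exon bases also belong to the DNAJC25-GNG10 readthrough gene on the same strand. Both percentages refer to its annotated exons, 1201 bp in all. Which 145 bp were counted was not checked, so how far its reads can be told apart from those of that gene is not known. With GNG10 left out, an alternative chosen after the data were seen, the share of GNG11 was 28.7% in vehicle and 38.2% after guadecitabine.

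Counts were then tested with the quasi-likelihood test of edgeR, with Benjamini-Hochberg adjustment over all genes and an adjusted p of 0.05 as the threshold. Of the 10 members, 8 had enough reads to be tested, and GNG3 and GNGT1 did not. By this threshold GNGT2, GNG4 and GNG11 lay among the genes called higher after guadecitabine and GNG7 among those called lower, while GNG2, GNG5, GNG10 and GNG12 did not pass. In the whole table, 19.3% of the 13322 tested genes were called higher and 18.4% lower. The family was chosen on these counts, and GNGT2 and GNG4 had enough reads only through the treated libraries. The calls of members therefore describe where they stand in the table and are no independent evidence. The median log2 fold change was 0.37 over the 8 tested members and 0.02 over all tested genes. Without vehicle replicate 3, the members called higher were 4, with GNG2 added, and GNG7 was again the one called lower, while 22.6% of all tested genes were called higher and 19.4% lower.

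**Figure D4:**
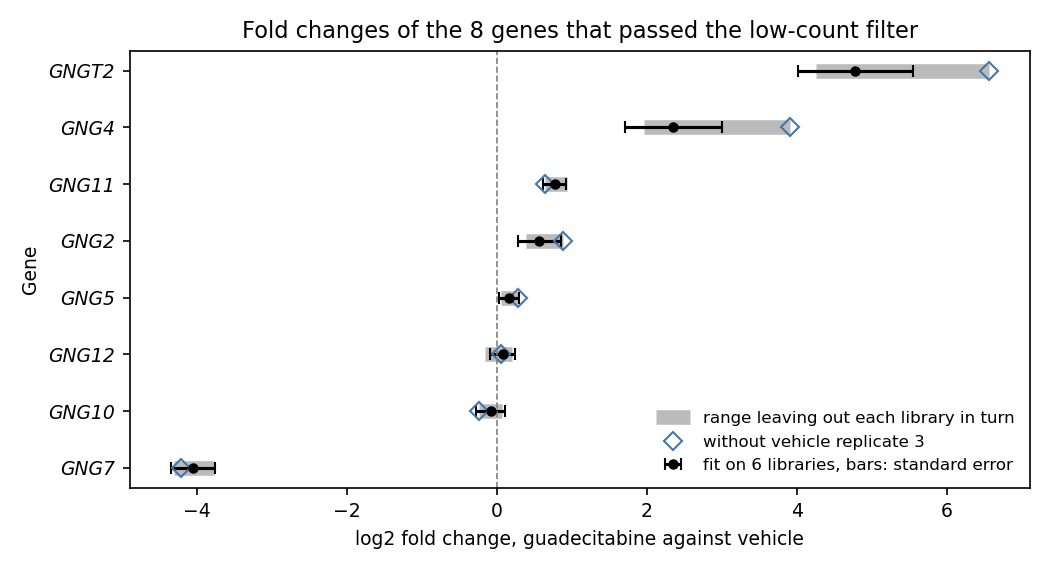
Log2 fold change of guadecitabine against vehicle (x axis) for the 8 members that could be tested (y axis). Black points with bars show the fit on 6 libraries with its standard error, grey bands the range when each library was left out in turn, and open diamonds the value without vehicle replicate 3, which lies at 6.56 for GNGT2 and 3.91 for GNG4 against 4.79 and 2.36 with all libraries.

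GNG7 encodes a gamma subunit that is abundant in the striatum of the brain, where it couples dopamine and adenosine receptors to adenylyl cyclase. Its normalized counts were 243.2, 232.7 and 177.1 in the vehicle libraries and 8.92, 20.4 and 13.1 in the treated ones. Every treated library lay far below every vehicle library. The fitted log2 fold change was -4.05 ± 0.30 (SE), a 16.6-fold lower level, and it stayed between -4.31 and -3.76 when each library was left out in turn. Among the 13322 tested genes only 11, GNG7 included, had a log2 fold change this low or lower. GNG7 spans chr19:2511218-2702746 on the minus strand, and 98.7% of its 50-base exon stretches are unique.

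The 3 genes whose depth-scaled log2 counts followed those of GNG7 most closely over the 6 libraries were H6PD, HCFC1R1 and LBH, with Pearson correlations of 0.9996, 0.9996 and 0.9995. H6PD encodes a dehydrogenase of the endoplasmic reticulum that provides NADPH. In all, 228 genes had a correlation above 0.99 with GNG7. The 6 points form 2 groups of libraries, so the measure largely reflects the difference between the groups. The fitted log2 fold changes were -1.22 for H6PD, -2.10 for HCFC1R1 and -1.53 for LBH, all smaller in size than that of GNG7.

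GNGT2 encodes the gamma subunit of cone transducin, which carries a farnesyl group and is known from the retina. Its normalized counts were 0, 1.06 and 4.64 in vehicle and 60.8, 59.1 and 59.7 after guadecitabine. The treated libraries were nearly equal to each other, although their depths differed, and the vehicle libraries were all far below them. The 75, 29 and 59 treated reads are too few for so small a spread to be read as precision. The fitted log2 fold change was 4.79 ± 0.77 (SE), and 91 of the 13322 tested genes had one as high or higher. The summed reads were 163 in the treated libraries and 7 in vehicle, a depth-scaled ratio of 28.2 with an exact 95% interval of 13.4 to 71.3 that covers counting error only. Vehicle replicate 3 supplied 6 of the 7 vehicle reads, which is 6.94 raw reads per kb and below the median of the low transcripts in that library. Without it, 1 read remained in vehicle, and the ratio was 119.8 with an interval of 21.2 to 4761. The level after treatment, 69.2 normalized reads per kb, was above the level of GNG7 in vehicle, 51.3.

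GNG4 encodes a subunit found mainly in the nervous system. Its normalized counts were 6.68, 6.35 and 43.3 in vehicle and 87.6, 93.8 and 118.3 after guadecitabine. The treated libraries were all above the vehicle libraries, of which replicate 3 was well above the others. The fitted log2 fold change was 2.36 ± 0.65 (SE) with all libraries and 3.91 ± 0.33 without vehicle replicate 3, and the level in that library was 11.5 raw reads per kb, close to the upper quartile of its low transcripts. Without guadecitabine replicate 3 the log2 fold change was 2.24 and GNG4 no longer lay among the genes called higher.

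GNG11 encodes a farnesylated subunit with a wide tissue distribution. Its normalized counts were 2156, 1736 and 1471 in vehicle and 2877, 3396 and 2900 after guadecitabine. The highest vehicle library was still below the lowest treated library. The fitted log2 fold change was 0.77 ± 0.15 (SE), with a range from 0.65 to 0.93 when each library was left out. In normalized reads per kb its mean went from 1874 to 3205, a difference far larger than the whole treated level of GNGT2, 69.2.

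GNG2, a subunit found in many tissues and often paired with the beta subunit GNB1, had 62.0, 50.8 and 95.1 normalized counts in vehicle and 124.9, 85.6 and 97.1 after guadecitabine. Vehicle replicate 3 lay within the range of the treated libraries, so the groups overlapped, and the other vehicle libraries were below all treated ones. The log2 fold change was 0.57 ± 0.29 (SE) with all libraries and 0.88 ± 0.24 without vehicle replicate 3. GNG2 lay among the genes called higher in the latter fit and not in the former, which is no independent evidence.

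GNG5, GNG12 and GNG10 made up most of the gamma subunit transcripts together with GNG11. For GNG5 the log2 fold change was 0.16 ± 0.13 (SE), with 2355 to 3228 normalized counts in vehicle and 2982 to 3409 after guadecitabine. GNG12, which is widely expressed and a known substrate of protein kinase C, had 4224 to 4608 in vehicle. After treatment GNG12 had 6007, 3799 and 4045, so that replicate 1 was high and the other treated libraries were below all vehicle libraries, and its log2 fold change was 0.08 ± 0.17. GNG10 had 144.6 to 224.1 in vehicle and 158.7 to 192.2 after guadecitabine, with a log2 fold change of -0.08 ± 0.19. The groups overlapped for these 3 genes. The signs of GNG10 and GNG12 were not fixed, since GNG10 turned to 0.07 without vehicle replicate 1 and GNG12 to -0.15 without guadecitabine replicate 1.

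The members that were not tested had few reads. GNG3, a neuronal subunit, had 5, 4 and 9 reads in vehicle and 4, 1 and 4 after guadecitabine, and 51.7% of its exon bases are shared with BSCL2 on the opposite strand. GNGT1, the gamma subunit of rod transducin, had 0, 0 and 32 reads in vehicle and 3, 0 and 5 after treatment. All of the GNGT1 reads in vehicle were in replicate 3. There they came to 51.0 raw reads per kb, far above the upper quartile of its low transcripts, 11.3. The family members GNG8 and GNG13, known from olfactory and taste cells, were in the table too, with 0, 0 and 13 reads for GNG8 and 2, 1 and 10 for GNG13 in vehicle. After guadecitabine GNG8 had 2 reads in each library and GNG13 had 1, 0 and 1. At these counts a change of the 4 genes was not detectable.

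The genes that work with gamma subunits were examined next, in lists of beta and alpha subunits, enzymes and chaperones that modify and fold the complex, effectors of the beta-gamma dimer, and regulators. Of 86 genes listed 83 were in the table and 57 were tested, with 10 higher and 11 lower by the edgeR test. These counts lie near the shares of all tested genes, 19.3% higher and 18.4% lower, which are the background for each list. The median log2 fold change was 0.04 over these genes. Without vehicle replicate 3 the counts were 12 and 12, but they were 5 and 4 without vehicle replicate 1, 4 and 6 without vehicle replicate 2, 7 and 6 without guadecitabine replicate 2, 9 and 10 without guadecitabine replicate 1, and 4 and 6 without guadecitabine replicate 3. The calls over all genes moved as well, from 12.5% to 22.6% higher and from 12.0% to 19.4% lower in these fits.

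**Figure D5:**
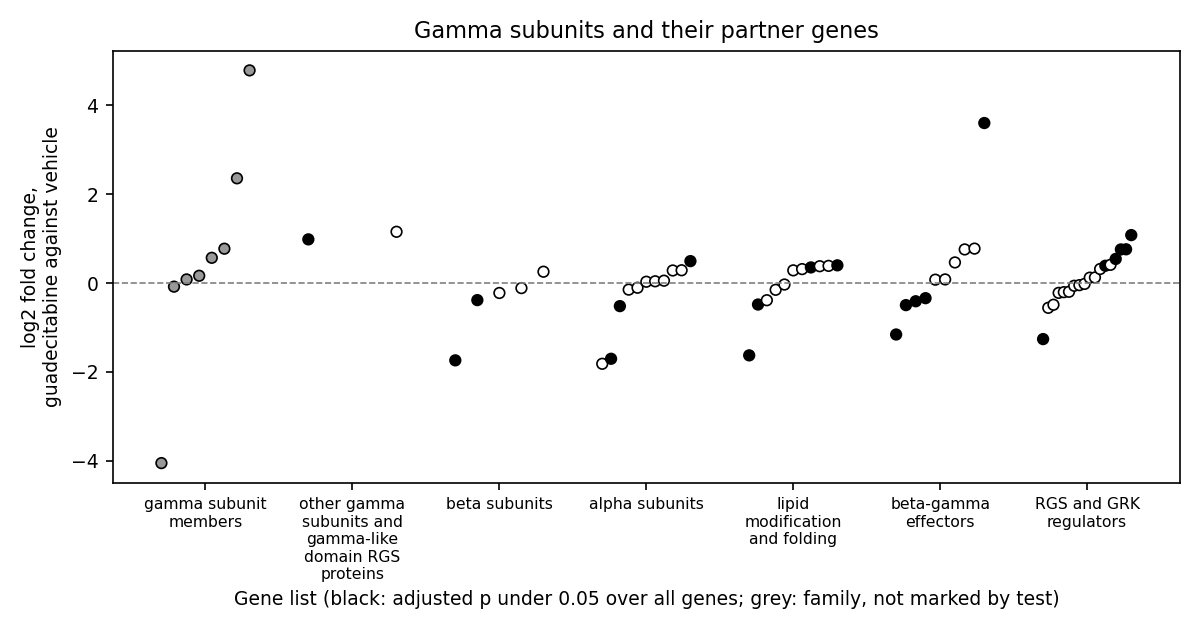
Log2 fold change of guadecitabine against vehicle (y axis) for each tested gene of the gamma subunit family (grey) and of the partner lists (x axis), where black points have an adjusted p under 0.05 over all genes. GNG7 at -4.05 and GNGT2 at 4.79 lie outside the range of the partner genes, of which PREX1 at 3.60 is the highest.

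Of the 5 beta subunits, 0 were called higher and 2 lower by edgeR. At an unadjusted p of 0.05 these were 0 and 3, and with DESeq2 they were 0 and 3. The shares of all tested genes given above do not apply to these other rules, so these counts have no background here. GNB1, the most abundant beta subunit and a partner of most gamma subunits, had 10830 ± 357 normalized counts in vehicle and 9275 ± 345 after guadecitabine (SD, n = 3), and its log2 fold change of -0.22 ± 0.09 (SE) did not pass (edgeR adjusted p = 0.0774), although it did with the Wald test of DESeq2 (adjusted p = 0.0152). GNB5, the atypical beta subunit that pairs with RGS proteins through their gamma-like domain, had a log2 fold change of -0.38 ± 0.12 (edgeR adjusted p = 0.0321), and the call was lost without vehicle replicate 1 (adjusted p = 0.139), vehicle replicate 2 (0.103), guadecitabine replicate 1 (0.0535) or guadecitabine replicate 2 (0.0816). GNB3, named because the count was small and after its values were seen, had 15, 21 and 30 reads in vehicle and 8, 3 and 5 after treatment, with a log2 fold change of -1.74 (edgeR adjusted p = 0.0417), and its call held only in the leave-one-out fit without vehicle replicate 3 (0.0143), with an adjusted p from 0.0703 to 0.174 in the others.

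RGS proteins with a gamma-like domain bind GNB5 in place of a gamma subunit. They were listed together with RGS7BP, RGS9BP and the other gamma subunits, GNG8 and GNG13. Of these 8 genes, 2 had enough reads for the test, RGS9 and RGS7, and 1 was called higher. RGS9, which speeds up the shutdown of transducin and of striatal G proteins, had 43, 38 and 60 reads in vehicle and 73, 44 and 104 after treatment, with a log2 fold change of 0.98 ± 0.31 (edgeR adjusted p = 0.0327). The RGS9 call was lost without vehicle replicate 1 (adjusted p = 0.0890), vehicle replicate 2 (0.0884), guadecitabine replicate 2 (0.0865) or guadecitabine replicate 3 (0.174). RGS7, given after its values were seen, had a log2 fold change of 1.15 ± 0.49 that did not pass (edgeR adjusted p = 0.0924), and of 1.67 without vehicle replicate 3, where it passed (0.00394).

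Of the 16 alpha subunits 11 were tested, with 1 higher and 2 lower. GNAS, the stimulatory alpha subunit of adenylyl cyclase and the most abundant gene of the list, fell from 26101 ± 2475 to 18213 ± 1068 normalized counts, a log2 fold change of -0.52 ± 0.10 (edgeR adjusted p = 0.00387) that passed in every leave-one-out fit. GNAO1, the main alpha subunit of neurons, had 111, 96 and 303 reads in vehicle and 57, 19 and 49 after treatment, and its log2 fold change was -1.70 ± 0.35 (edgeR adjusted p = 0.00506) and -1.18 without vehicle replicate 3. It was below the level set for naming genes and is given after its values were seen. GNA13 had a log2 fold change of 0.49 ± 0.13 (edgeR adjusted p = 0.0168), and its call was lost without vehicle replicate 2 (adjusted p = 0.0586).

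Effectors of the beta-gamma dimer held the largest change among the partners. PREX1, a Rac exchange factor that beta-gamma dimers activate, had 17, 16 and 87 reads in vehicle and 486, 215 and 440 after guadecitabine. Every treated library was far above every vehicle library, and the log2 fold change was 3.60 ± 0.43 (edgeR adjusted p = 0.000246), or 4.67 without vehicle replicate 3. ADCY6, an adenylyl cyclase, fell from 717.9 ± 109 to 322.4 ± 15.7 normalized counts, a log2 fold change of -1.16 ± 0.13 (edgeR adjusted p = 0.000204).

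Of the 10 genes of this list that were tested, 1 was higher and 4 were lower, against 19.3% and 18.4% of all tested genes. The list took in the PLCB and ADCY families whole, and whether each member answers to the dimer was not checked. ADCY9 had a log2 fold change of -0.41 ± 0.11 and lost its call without vehicle replicate 1 (edgeR adjusted p = 0.0701) or guadecitabine replicate 3 (0.0621). ADCY7 had -0.50 ± 0.15 and kept its call without vehicle replicate 3 or guadecitabine replicate 3 but in no other leave-one-out fit (edgeR adjusted p from 0.0504 to 0.109). ADCY3, given after its values were seen, had -0.34 ± 0.10 and lost its call without vehicle replicate 1 (edgeR adjusted p = 0.147), vehicle replicate 2 (0.0884) or guadecitabine replicate 3 (0.0786). PLCB3, a phospholipase C that the dimer activates and the most abundant gene of the list, had 2206 ± 120 normalized counts in vehicle and 2326 ± 75.4 after treatment. Without vehicle replicate 3, 4 genes of the list were called higher and 4 lower, against 22.6% and 19.4% of all genes tested in that fit. The added calls, PLCB2, PLCB4 and PIK3CG, had only 0 to 12 reads in vehicle replicates 1 and 2.

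Of the 11 tested enzymes and chaperones that modify and assemble the dimer, 2 were higher and 2 lower, with log2 fold changes of 0.35 for RIC8A, a chaperone of alpha subunits, 0.40 for TCP1, a subunit of the chaperonin that folds beta subunits, and -0.48 for PDCL, a cochaperone of dimer assembly. The call of RIC8A held only in the leave-one-out fit without guadecitabine replicate 1, that of TCP1 only without guadecitabine replicate 2, and that of PDCL only without vehicle replicate 3 or guadecitabine replicate 1, and the edgeR adjusted p in the other fits was between 0.0539 and 0.149. FNTB, the beta subunit of the farnesyltransferase, was the other gene called lower, with a log2 fold change of -1.63 ± 0.49. It had 51, 28 and 94 reads in vehicle and 27, 5 and 15 after treatment. These were counted over only 309 bp, against a median of 2815 bp over all transcripts. FNTB was named after its values were seen, and its call was lost without vehicle replicate 1 (edgeR adjusted p = 0.0723), guadecitabine replicate 2 (0.0924) or guadecitabine replicate 3 (0.107).

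Among RGS and GRK regulators 18 were tested, with 5 higher and 1 lower. GPSM3, which binds inhibitory alpha subunits and beta subunits, rose from 1015 ± 41.3 to 2147 ± 258 normalized counts (log2 fold change 1.08 ± 0.12 SE, edgeR adjusted p = 0.000138). RGS10, which speeds up GTP hydrolysis by inhibitory alpha subunits, rose by 0.76 ± 0.10 on the log2 scale (edgeR adjusted p = 0.000395). RGS12 fell by 1.26 on the same scale, from 534.4 ± 42.4 to 225.0 ± 29.5 normalized counts (edgeR adjusted p = 0.000112). For these 3 genes the groups did not overlap and the call held in every leave-one-out fit. RGS4 and GRK6, the latter a receptor kinase and the most abundant gene of the list, had log2 fold changes of 0.76 and 0.54. The RGS4 call was lost without vehicle replicate 1 or 2 or guadecitabine replicate 1 or 3 (edgeR adjusted p from 0.0619 to 0.0825), and that of GRK6 without guadecitabine replicate 2 (0.0522) or 3 (0.0802). GRK5, given after its values were seen, was the remaining gene called higher, with a log2 fold change of 0.39 ± 0.10, and its call was lost without vehicle replicate 1 (edgeR adjusted p = 0.0698), vehicle replicate 2 (0.0626) or guadecitabine replicate 3 (0.0625).

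The genes next to the members were compared as well. Within 50 kb of the 10 members lay 26 other genes of the table, of which 22 were tested, 6 were called higher and 4 lower by edgeR, near the 19.3% and 18.4% of all tested genes. Without guadecitabine replicate 3 these were 3 and 3, with 12.5% and 12.0% of all genes, and without vehicle replicate 1 they were 4 and 2, with 13.3% and 12.5%. TFPI2, which encodes a secreted protease inhibitor, lies 15.5 kb from GNGT1 and 30.7 kb from GNG11. It had 1926, 1494 and 2183 reads in vehicle and 18978, 8180 and 15330 after guadecitabine, with no overlap between the groups. Its log2 fold change of 3.22 ± 0.11 (SE, edgeR adjusted p = 1.21e-07) was far above the 0.77 of GNG11, and GNGT1, which lies between them, had at most 5 reads in any treated library.

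Around GNG7, the nearest gene DIRAS1 had a log2 fold change of -0.27 ± 0.46 (edgeR adjusted p = 0.686), SLC39A3 had -0.10 ± 0.23 (0.768), and GADD45B, a stress-induced gene 33.0 kb away, had -0.53 ± 0.11 (0.00391). Each of these was far smaller in size than the change of GNG7. Next to GNG4, LYST, a regulator of lysosome size, fell by 1.25 on the log2 scale (edgeR adjusted p = 0.00964), and B3GALNT2 had -0.05 ± 0.10. GNG4 and LYST thus moved in opposite directions 10.3 kb apart.

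GNGT2 overlaps ABI3 on the opposite strand, and 9.09% of the GNGT2 exon bases also lie in ABI3 exons. The counting is not stated to use strand, so reads in the shared bases cannot be assigned to one of the genes. ABI3, an adaptor of actin regulation, had 1, 0 and 49 reads in vehicle and 52, 35 and 62 after guadecitabine. With all libraries its log2 fold change was 2.10 ± 1.09 and did not pass (edgeR adjusted p = 0.162), whereas without vehicle replicate 3 it was 6.49 and passed (adjusted p = 3.65e-05). In both fits ABI3 had enough reads only through the treated libraries, and in the latter only 1 and 0 vehicle reads remained. The other 2 genes near GNGT2, PHOSPHO1 and B4GALNT2, had at most 22 reads in any library and were not tested.

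Near the remaining members, NID2, a basement membrane gene 35.0 kb from GNG2, had 7, 11 and 77 reads in vehicle and 154, 76 and 137 after treatment. Its log2 fold change was 2.36 ± 0.62 (edgeR adjusted p = 0.0157), 3.91 without vehicle replicate 3, and not past the threshold without guadecitabine replicate 3 (adjusted p = 0.0598). DNAJC25, which lies beside GNG10 and forms the readthrough gene with it, rose by 0.75 ± 0.13 on the log2 scale (edgeR adjusted p = 0.00226), while GNG10 had -0.08. GADD45A, 13.1 kb from GNG12, rose by 0.47 ± 0.11 (edgeR adjusted p = 0.00784). RPF1 and CTBS near GNG5 had log2 fold changes of 0.17 and 0.13 and did not pass.

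C9orf84 near GNG10 had 1.95 and METTL12, HNRNPUL2 and ZBTB3 near GNG3 had 0.63, -0.68 and -0.73, each past the threshold with all libraries. The C9orf84 call held only without vehicle replicate 3 or guadecitabine replicate 2, and that of METTL12 only without vehicle replicate 3 or guadecitabine replicate 1, with an edgeR adjusted p from 0.0625 to 0.123 in the other leave-one-out fits. The call was lost for HNRNPUL2 without vehicle replicate 1 (edgeR adjusted p = 0.0673) or guadecitabine replicate 3 (0.0949), and for ZBTB3 without vehicle replicate 1 (0.0552). C9orf84 was 3.15 without vehicle replicate 3. The other genes near GNG3, namely UQCC3, UBXN1, C11orf98, LBHD1 and TTC9C, and C14orf166 near GNG2 had log2 fold changes from -0.41 to 0.23 and did not pass, although C14orf166 did without guadecitabine replicate 2 (adjusted p = 0.0456). BSCL2 and LRRN4CL were not tested.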

How the data were processed

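The authors aligned reads to hg19 with STAR 2.3.1z and deposited raw counts of exon reads per RefSeq transcript, counted with iRNA-seq, with the counted exon length. They also deposited regularized log2 values of DESeq2, which were not used in the tests, and columns of their own comparison (fold change, test statistic and p-values), of which no value was used. Strand, read length and the treatment of reads with several matches are not given in the sources used here.

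The fit across genes used edgeR 4.0.16 (R 4.3.3, TMM, filterByExpr with a minimum count of 10, quasi-likelihood test, Benjamini-Hochberg adjustment over 13322 genes, threshold 0.05). Standard errors were derived from the F statistic, and all 6 libraries entered the fit without covariates. Normalized counts refer to a library of 17911210 reads, the average total. The fit was also run on simulated counts, which did not include the raised floor of vehicle replicate 3. No pair of libraries held identical counts. P-values set the difference between the groups against the spread between libraries, 3 per group, estimated with information shared across genes. The interval of the GNGT2 ratio treats the summed reads as independent molecules, which they need not be. It leaves out the spread between libraries and covers counting error at most.

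The start region of GNGT2 is not reported here. The members and all lists were chosen with earlier results of these data known. Named were all members, GNG8 and GNG13, neighbor genes within 50 kb, from each partner list up to 4 called genes with a mean of at least 100 normalized counts and no overlap between groups plus the most abundant gene, and the 3 genes most like the member of largest change. Genes named outside this rule are marked as chosen after their values were seen. Alternatives were a replicate block, the size factors and Wald test of DESeq2 1.42.0, library totals alone, a minimum of 10 counts in each library, the unfiltered table, and leaving out each library in turn.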

Additional observations from a re-analysis of the deposited data

How the results depend on the processing

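With at least 10 counts in every sample, 1 member was called higher, since GNGT2 and GNG4 were then removed from the table of tested genes. The replicate numbers in the labels were not found to pair the libraries (correlation of deviations between -0.05 and 0.05 for same-numbered libraries), and with a replicate block the members called higher and lower were again 3 and 1, the partner genes 9 and 8, and the neighbors 7 and 4. Without a filter the partner genes called lower were 7. The shares of all genes called with at least 10 counts in every sample, with the block or without a filter are not given here. The counts from these fits therefore have no background. When each library was left out in turn, the members called higher ranged from 2 to 4 and the partner genes called higher from 4 to 12 and lower from 4 to 12. The neighbors called higher ranged from 3 to 7 and lower from 2 to 4. Over all genes the calls ranged from 1706 to 3002 higher and from 1629 to 2575 lower, lowest without guadecitabine replicate 3. Of 94 alternative fold changes of members, 90 kept direction and side of the threshold. The sign turned, with no call in any of these fits, in the leave-one-out fold changes of GNG10 (-0.24 to 0.071), GNG12 (-0.15 to 0.21), C11orf98 (-0.62 to 0.15), SLC39A3 (-0.40 to 0.089), UBXN1 (-0.081 to 0.14) and LBHD1 (-0.17 to 0.24), and for LBHD1 also with library totals alone (0.0087) and without a filter (0.013). The cause was not tested. Depth limits GNG3, GNGT1, GNG8 and GNG13, whose reads were too few to be tested.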
